A study of Rattus norvegicus with 10 samples.

Results

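Gbp2, Irgm2, Mx1 and Mx2 are interferon-induced GTPase genes, and their response to interferon gamma (IFN-gamma) was described in cultured rat microglia, the resident macrophages of the brain. Every probe set whose single gene symbol in the platform annotation was one of these names was taken. This gave 4 probe sets, 1 for each gene, of the 8740 probe sets tested, and 4 genes of the 4736 with a single symbol. The probe sets are M80367_at for Gbp2, rc_AA891944_at for Irgm2, X52711_at for Mx1 and X52713_at for Mx2. The series asked how microglia from neonatal rat brain respond to activation by IFN-gamma. In the IFN-gamma group 3 cultures (1, 2 and 3) received fresh medium with 100 U/ml IFN-gamma for 16 hours, and culture 1 was measured on 3 technical arrays (1a, 1b and 1c). In the control group 5 independent cultures (1, 2, 3, 5 and 6) received fresh medium alone. All 10 arrays held total RNA from primary cells raised from 1 brain per flask in medium with 15% fetal calf serum and plated on day 15, and rat strain and sex are not given in the sources used here.

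Guanylate-binding proteins such as Gbp2 are large GTPases that assemble on the membranes of intracellular pathogens and their vacuoles. Irgm2 belongs to the immunity-related GTPases, whose IRGM subgroup is known from mice to restrain the other members on the cell's own membranes. Mx proteins are dynamin-like GTPases, some of which block the replication of RNA viruses. IFN-gamma, the type II interferon, acts on genes through GAS elements, and through IRF1, which it induces and which binds ISRE-type elements. Type I interferons act mainly through ISRE elements, and Mx genes are textbook targets of that route, whereas Gbp2 and Irgm2 are textbook targets of IFN-gamma.

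Because GAS and ISRE elements mark these routes, the upstream sequences of the genes are shown, each the 250 bases before the RefSeq start site on the rat build GRCr8, written 5′ to 3′ along the gene. Of the 4 genes 3 were listed in the promoter table used. Capitals mark matches to the GAS letters TTCNNNGAA, where N is any base, or to an ISRE core, taken as a GAAA repeat with 2 bases of any kind between its copies, both searched on both strands.
Gbp2, chr2:234005477-234005726, plus strand: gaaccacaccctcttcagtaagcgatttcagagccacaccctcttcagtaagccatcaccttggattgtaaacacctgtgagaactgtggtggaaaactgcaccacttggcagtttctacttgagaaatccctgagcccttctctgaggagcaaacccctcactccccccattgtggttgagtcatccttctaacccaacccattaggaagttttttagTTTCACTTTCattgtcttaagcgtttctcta
Irgm2, chr10:42889720-42889969, plus strand: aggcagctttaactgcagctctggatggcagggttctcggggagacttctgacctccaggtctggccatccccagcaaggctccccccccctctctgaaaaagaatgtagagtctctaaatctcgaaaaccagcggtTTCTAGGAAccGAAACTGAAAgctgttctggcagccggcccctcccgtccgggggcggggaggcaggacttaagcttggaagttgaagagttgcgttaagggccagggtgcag
Mx1, chr11:50294607-50294856, minus strand: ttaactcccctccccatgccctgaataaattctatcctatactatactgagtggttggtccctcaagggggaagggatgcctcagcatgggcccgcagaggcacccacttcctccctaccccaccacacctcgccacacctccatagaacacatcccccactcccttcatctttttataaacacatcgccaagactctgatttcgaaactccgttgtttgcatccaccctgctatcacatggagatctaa
Gbp2 held 1 ISRE match, on the opposite strand, from 31 to 22 bases before the start site, and 0 GAS matches. Irgm2 held 1 GAS match from 113 to 105 bases before the start site and 1 ISRE match from 102 to 93 bases before it, which did not overlap. Mx1 held 0 matches to either set of letters in this window. Among 33469 promoters of the same length 7.67% held a GAS match, 3.41% an ISRE match and 0.43% both. A match is a description of the letters and not a measured binding site. On chromosome 11 Mx1 and Mx2 lie near each other, with 1 annotated gene, Fam3b, between them.

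**Figure D1:**
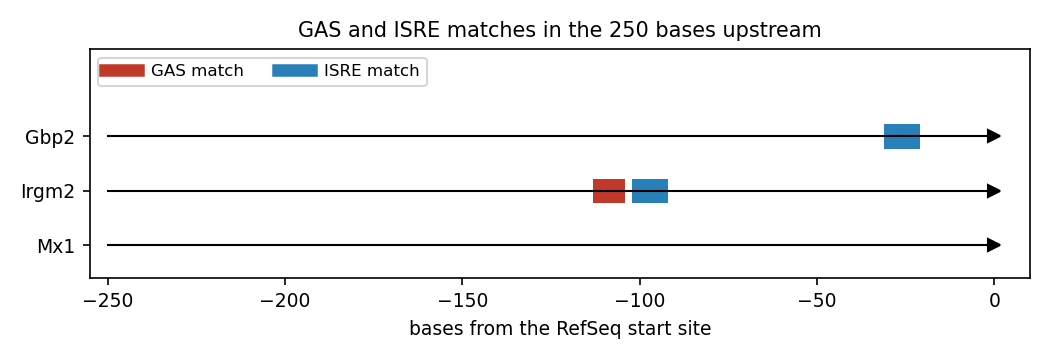
Positions of GAS matches (red) and ISRE matches (blue) in the 250 bases before the RefSeq start sites of Gbp2, Irgm2 and Mx1, with the distance from the start site in bases on the horizontal axis. Irgm2 holds 1 match of each kind, Gbp2 holds 1 ISRE match close to its start site and Mx1 holds 0.

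The deposited signal was not on a common scale, with array medians from 11.1 to 23.7 in the IFN-gamma arrays and from 7.4 to 20.2 in the control arrays, so levels below are quantile-normalised values of log2(signal + 16). A signal of 0 lies at 4 on this scale. The dimmest array was control culture 3. For the GAPDH array controls the 3′ signal over the 5′ signal, which reflects RNA integrity, ran from 1.30 to 1.78 in the IFN-gamma arrays and from 1.33 to 1.81 in the control arrays. In these bulk cultures a change in the share of a cell type cannot be told apart from a change in RNA per cell. Of 8 measured microglia and macrophage marker genes 2 rose, the complement genes C1qb and C1qc, and 0 fell, where 0.887% of all genes were called higher and 0.697% lower at an adjusted p under 0.05 (limma). For C1qc the other 2 probe sets did not pass (smallest adjusted p = 0.0819). The summed signal of these 8 genes ran from 1388 to 1836 in the IFN-gamma cultures and from 746 to 958 in the controls. This sum includes the 2 called genes, and C1qb was the brightest of the 8 (9.92 in the IFN-gamma cultures and 8.77 in the controls). A sum without C1qb and C1qc was not taken. At an unadjusted p under 0.05 by limma there were 3 of the 8, beside 11.1% of all genes. The integrin gene Itgam did not pass (log2 fold change 0.79, limma adjusted p = 0.0951), with all 3 IFN-gamma cultures above the controls. Aif1, the microglial marker gene of IBA1, was at 8.24 in the IFN-gamma cultures and 7.81 in the controls, while the receptor genes Csf1r (4.88 and 4.73) and Cx3cr1 (4.91 and 5.19) were dim. Of 8 astrocyte marker genes 0 rose and 1 fell, the glutamine synthetase gene Glul, with a sum of 259 to 314 in the IFN-gamma cultures and 560 to 926 in the controls. The other 3 Glul probe sets had log2 fold changes of -0.998 to -0.586 and did not pass (smallest limma adjusted p = 0.179). Without Glul the sum of the other 7 ran from 116 to 139 in the IFN-gamma cultures and from 106 to 187 in the controls. Of 7 fibroblast and vessel markers 0 passed by their brightest probe sets (2 at an unadjusted p under 0.05 by limma), with a sum of 181 to 231 in the IFN-gamma cultures and 231 to 329 in the controls, while a dimmer probe set of the collagen gene Col1a1 fell by 1.20 on the log2 scale (adjusted p = 0.0239). The T cell and natural killer cell markers, 10 measured genes, had 0 past the threshold (0 at an unadjusted p under 0.05 by limma). Of these, the T cell receptor complex gene Cd3d lay near the floor at 4.54 in the IFN-gamma cultures and 4.42 in the controls. Others lay higher, with the kinase gene Lck the brightest at 6.40 and 6.48 and the coreceptor gene Cd8b at 5.61 and 5.43. Whether these markers play a part in the GTPase values was not tested.

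In the microglia exposed to IFN-gamma, 3 of the 4 GTPase genes were higher than in the controls and 0 were lower. They were Gbp2, Irgm2 and Mx1, while Mx2 did not pass the test. Across all probe sets tested 1.53% were called, 0.927% higher and 0.606% lower, at an adjusted p under 0.05 (limma, Benjamini-Hochberg adjustment over 8740 probe sets). These were 81 and 53 probe sets, compared with 38 higher and 1 lower with no scaling between arrays and 100 higher and 27 lower with array medians subtracted. For Gbp2, Irgm2 and Mx1 alike, all 3 IFN-gamma cultures lay above all 5 controls, a separation seen in 4.28% of all probe sets. Ordered by the size of the increase among 8740 probe sets, Gbp2 was number 15, Irgm2 number 21 and Mx1 number 29.

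Gbp2, the guanylate-binding protein gene, had normalised levels of 7.52, 7.89 and 7.44 in IFN-gamma cultures 1, 2 and 3. In control cultures 1, 2, 3, 5 and 6 its levels were 4.97, 4.28, 4.65, 4.25 and 4.27. The groups were 2.46 log2 units apart at their nearest, and 3 of the 5 controls lay within 0.3 of the floor. As deposited, the Gbp2 signal was 114.5, 370.8 and 109.4 on arrays 1a, 1b and 1c, 296.5 in IFN-gamma culture 2 and 256.1 in culture 3. It was 19.8, 2.6, 4.5, 3.5 and 4 in the 5 controls in the same order. The mean level was 7.62 ± 0.243 (SD, n = 3) with IFN-gamma and 4.48 ± 0.319 (SD, n = 5) in the controls. The log2 fold change was 3.13 ± 0.22 (SE), an 8.77-fold increase (95% interval 6.22 to 12.4; limma adjusted p = 8.76e-05).

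Irgm2, the immunity-related GTPase gene, had levels of 7.77, 7.80 and 8.01 in IFN-gamma cultures 1, 2 and 3. Its levels were 5.64, 4.68, 5.24, 5.31 and 5.40 in control cultures 1, 2, 3, 5 and 6. The IFN-gamma cultures lay within 0.239 of each other and 2.12 above the highest control. Control culture 2 was the lowest, and the other controls lay between 5.24 and 5.64. The mean was 7.86 ± 0.129 (SD, n = 3) with IFN-gamma and 5.25 ± 0.354 (SD, n = 5) in the controls. This was a log2 fold change of 2.60 ± 0.222 (SE), or 6.08-fold (95% interval 4.30 to 8.59; limma adjusted p = 0.00036).

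Mx1, an antiviral dynamin-like GTPase gene, had levels of 8.39, 8.11 and 7.97 in IFN-gamma cultures 1, 2 and 3. Its levels were 6.82, 5.73, 5.03, 6.51 and 6.07 in control cultures 1, 2, 3, 5 and 6. The groups did not overlap, but the controls spread over 1.79 log2 units, against 0.724 for Gbp2 and 0.96 for Irgm2. The lowest Mx1 value came from control culture 3, the dimmest array, and whether that played a part was not tested. The mean was 8.16 ± 0.215 (SD, n = 3) with IFN-gamma and 6.03 ± 0.696 (SD, n = 5) in the controls. The log2 fold change was 2.12 ± 0.368 (SE), or 4.36-fold (95% interval 2.46 to 7.74; limma adjusted p = 0.0226). The call was lost without IFN-gamma culture 1, 2 or 3 (limma adjusted p = 0.129, 0.119 and 0.0953) and without control culture 2 or 6 (0.0609 and 0.0598), and it held without control culture 3 (0.0117). It was also lost with no scaling between arrays (log2 fold change 2.49, adjusted p = 0.175) and with an offset of 1 (2.50, adjusted p = 0.096). With the culture number as a replicate block Mx1 did not pass either (2.30, limma adjusted p = 0.0939). Control cultures 5 and 6 have no same-numbered IFN-gamma culture, so that fit compares cultures 1, 2 and 3 alone.

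Mx2, the other Mx gene, which the RefSeq table also lists under the name Mx3, had levels of 4.44, 4.47 and 5.38 in IFN-gamma cultures 1, 2 and 3. Its levels were 4.38, 5.11, 6.08, 5.51 and 4.38 in control cultures 1, 2, 3, 5 and 6. The groups overlapped over the whole range of the IFN-gamma cultures. IFN-gamma culture 3 and control cultures 2, 3 and 5 lay above 5, and the others lay below 4.5. Control culture 3, which was lowest for Mx1, was the highest control for Mx2 after normalisation. As deposited, its Mx2 signal was 23, below the 34.4 of control culture 5. The mean was 4.77 ± 0.533 (SD, n = 3) with IFN-gamma and 5.09 ± 0.736 (SD, n = 5) in the controls. The log2 fold change was -0.33 ± 0.419 (SE) with a 95% interval of -1.27 to 0.62 (limma adjusted p = 0.893). The deposited Mx2 signal ran from 3.6 to 35.1 on the IFN-gamma arrays and from 5.7 to 34.4 on the control arrays. Its place within an array varied, above 81.6% of probe sets in control culture 3 and 67.6% in control culture 5, but 23.4% in control culture 1. Whether either Mx probe set also binds transcripts of the other Mx gene was not tested.

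**Figure D2:**
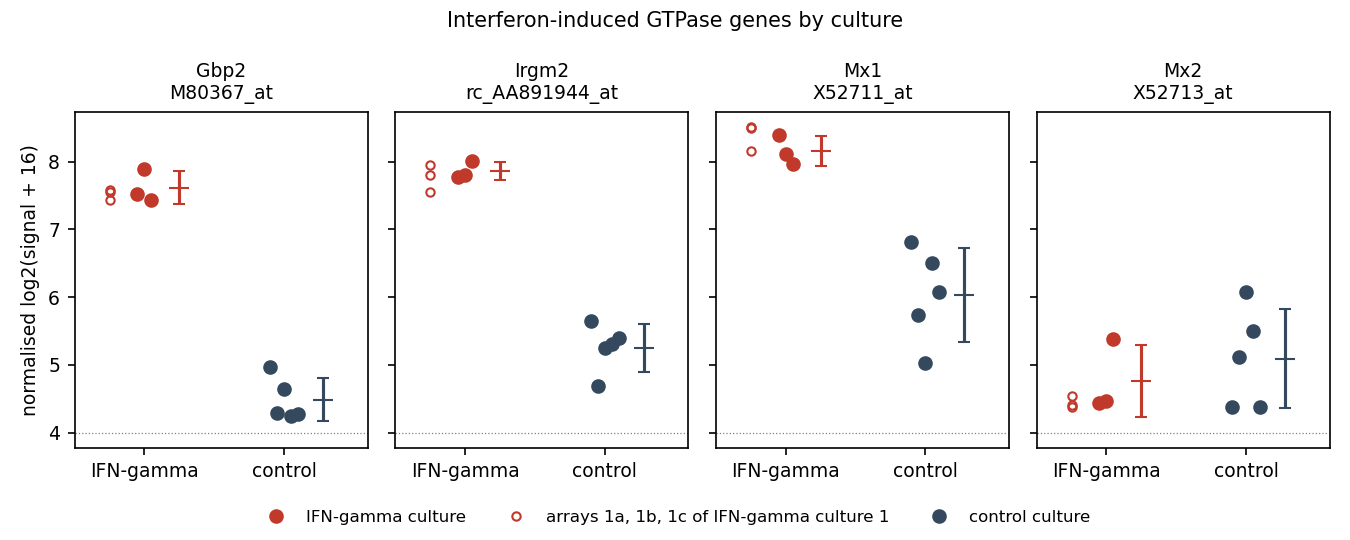
Normalised log2(signal + 16) of Gbp2, Irgm2, Mx1 and Mx2 in each IFN-gamma culture (red) and control culture (dark blue), with the mean and SD beside each group (n = 3 and n = 5), the technical arrays of IFN-gamma culture 1 as open circles and a signal of 0 as a dotted line. The groups are separate for Gbp2, Irgm2 and Mx1 and overlap for Mx2.

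The 3 technical arrays of IFN-gamma culture 1 gave the measurement error within a culture. As deposited, the highest of the 3 signals was 3.39 times the lowest for Gbp2, 4.74 times for Irgm2, 5.19 times for Mx1 and 2.86 times for Mx2, and array 1b was the highest each time. After normalisation Gbp2 lay at 7.43, 7.55 and 7.58 on arrays 1a, 1b and 1c, and Mx2 lay at 4.38, 4.54 and 4.41. Irgm2 lay at 7.81, 7.95 and 7.54 and Mx1 at 8.50, 8.51 and 8.16. The SD over these arrays was 0.0785 for Gbp2, 0.206 for Irgm2, 0.199 for Mx1 and 0.09 for Mx2, against a median of 0.308 over all probe sets. The technical SD exceeded the SD of 0.129 over the 3 IFN-gamma cultures for Irgm2 and was close to the SD of 0.215 for Mx1, whereas for Gbp2 and Mx2 the cultures spread further than the arrays did (0.243 and 0.533).

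The response of the IFN-gamma-driven GTPase genes was then set against that of the Mx genes. For each pair of genes the difference between the log2 levels was taken within each culture, and its mean in the IFN-gamma cultures was compared with that in the controls by a two-sided exact permutation test over 56 splits, for which the smallest p is 0.0179. There were 6 pairs. The response of Gbp2 exceeded that of Mx1 by 1.01 log2 units, a difference that did not pass the test (exact permutation p = 0.107, 0.129 adjusted over the 6 pairs). The within-culture difference, Gbp2 minus Mx1, ran from -0.87 to -0.22 in the IFN-gamma cultures and from -2.26 to -0.38 in the controls, so the groups overlapped. Irgm2 exceeded Mx1 by 0.48 (exact permutation p = 0.25, adjusted p = 0.25), and Gbp2 exceeded Irgm2 by 0.53 (exact permutation p = 0.0893, adjusted p = 0.129). Neither pair was separated.

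Mx2 stood further from the other genes. The response of Gbp2 exceeded that of Mx2 by 3.46 log2 units and that of Irgm2 exceeded it by 2.93, each at the smallest p the design allows (exact permutation p = 0.0179, adjusted p = 0.0536). Gbp2 minus Mx2 ran from 2.06 to 3.42 in the IFN-gamma cultures and from -1.43 to 0.59 in the controls, with no overlap. Irgm2 minus Mx2 ran from 2.63 to 3.33 in the IFN-gamma cultures and from -0.84 to 1.27 in the controls. The response of Mx1 exceeded that of Mx2 by 2.45 (exact permutation p = 0.0357, adjusted p = 0.0714), and here too the ranges did not overlap, at 2.59 to 3.95 in the IFN-gamma cultures and -1.05 to 2.44 in the controls. After adjustment 0 of the 6 pairs passed 0.05 (3 at an unadjusted p under 0.05).

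The size of a response depended on the offset added to the signal before the logarithm, most of all for Gbp2, whose controls lay near the floor. With offsets of 1, 4, 16 and 64 the Gbp2 increase was 27.6-fold, 18.5-fold, 8.77-fold and 3.53-fold, and it passed the test at each (limma adjusted p = 0.00243, 0.000512, 8.76e-05 and 5.57e-05). Irgm2 rose 9.76-fold, 8.59-fold, 6.08-fold and 3.29-fold at the same offsets. Mx1 was 5.64-fold, 5.29-fold, 4.36-fold and 2.90-fold higher, and it passed at offsets of 4, 16 and 64 (limma adjusted p = 0.0499, 0.0226 and 0.0111). The order Gbp2, Irgm2, Mx1 was the same at all 4 offsets. The excess of Gbp2 over Mx1 was 2.29 log2 units at an offset of 1 and 0.28 at an offset of 64, and it passed at neither (exact permutation p adjusted over the 6 pairs 0.0857 and 0.429).

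**Figure D3:**
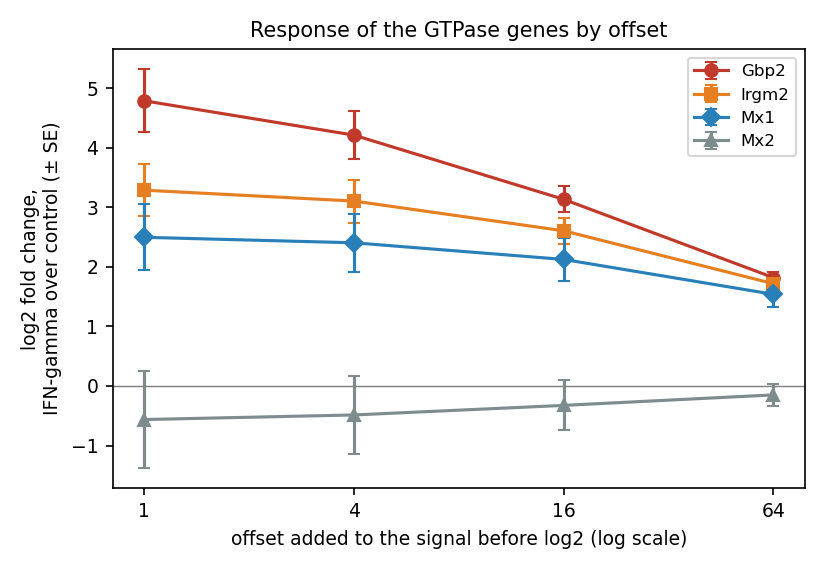
Log2 fold change of IFN-gamma over control cultures (± SE) for Gbp2, Irgm2, Mx1 and Mx2 against the offset added to the signal, on a log axis. Gbp2 is highest and Mx1 lowest of the 3 responding genes at each offset, and the gap is widest at an offset of 1 and narrow at 64, while Mx2 stays near 0.

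Related genes were read from gene lists by their brightest probe set. The list named for other interferon-inducible GTPases had 1 measured gene, Irgq, a distant relative of the immunity-related GTPases. Whether Irgq is itself induced by interferon was not established here, so its value does not stand for the unmeasured genes of that list. Irgq did not pass (4.95 ± 0.471 in the IFN-gamma cultures and 4.91 ± 0.552 in the controls, SD, n = 3 and n = 5; limma adjusted p = 0.992). Among 7 relatives of the Mx proteins in the dynamin superfamily, 0 were called in either direction by limma (0 at an unadjusted p under 0.05). Over all genes 0.887% were called higher and 0.697% lower, and 11.1% had an unadjusted p under 0.05. The median log2 fold change of the 7 was 0.04, beside -0.02 over all genes. The dynamin gene Dnm1 had a log2 fold change of -0.58 (limma adjusted p = 0.505). Dnm1l, which divides mitochondria, had 0.42 (adjusted p = 0.616), and Mfn2 and Opa1, which fuse them, had -0.28 and -0.31 (adjusted p = 0.69 and 0.827).

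Among antiviral genes of the type I interferon programme, the group to which Mx genes belong, 8 were measured and 0 passed by limma in either direction. At an unadjusted p under 0.05 there were 2 of 8, beside 11.1% of all genes. The median log2 fold change of the 8 was 0.30, and 7 of 8 were above 0, beside a median of -0.02 and 47.1% above 0 over all genes. Irf7, a transcription factor gene of the type I response, had levels of 6.97, 6.87 and 7.32 in IFN-gamma cultures 1, 2 and 3. Its levels were 6.65, 4.54, 5.26, 4.58 and 6.38 in control cultures 1, 2, 3, 5 and 6. The groups did not overlap, yet the spread among controls was wide and the log2 fold change of 1.57 ± 0.5 (SE) did not pass (limma adjusted p = 0.237). The dimmer Irf7 probe set had a log2 fold change of 0.36 (limma adjusted p = 0.671). As for Mx1, control culture 1 was the highest control for Irf7, but the lowest was culture 2 for Irf7 and culture 3 for Mx1.

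Stat2, a subunit of the type I interferon transcription complex, had a log2 fold change of 0.76 ± 0.246 (SE; limma adjusted p = 0.249). The oligoadenylate synthetase gene Oas1a, whose product starts RNA decay, had 0.31 (adjusted p = 0.557), with all 3 IFN-gamma cultures above the controls. Eif2ak2, the RNA-activated kinase PKR, had 0.56 (adjusted p = 0.575). Of the interferons and type I receptor, 3 genes were measured and 0 passed by limma (0 at an unadjusted p under 0.05, beside 11.1% of all genes). Ifnb1, the interferon beta gene, lay near the floor at 4.47 ± 0.236 in the IFN-gamma cultures and 4.54 ± 0.358 in the controls (SD, n = 3 and n = 5). For the receptor gene Ifnar1 the log2 fold change was 0.17 (adjusted p = 0.936), and for Ifng, the IFN-gamma gene itself, it was -0.15 (adjusted p = 0.959).

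In the list of the IFN-gamma receptor, its signal and its primary targets, 9 of 17 measured genes rose and 0 fell, beside 0.887% of all genes called higher and 0.697% lower. The median log2 fold change was 1.35, and with the culture number as a replicate block 3 genes of the list were called higher by limma. The transcription factor gene Irf1, which acts on ISRE-type elements, was at 9.07 ± 0.124 in the IFN-gamma cultures and 5.74 ± 0.21 in the controls (SD, n = 3 and n = 5; limma adjusted p = 1.08e-05). The other 8 that rose were Irf8, another IRF gene, the receptor inhibitor gene Cish, the chemokine gene Cxcl10, the immunoproteasome genes Psmb9 and Psmb8, the peptide transporter gene Tap1, the invariant chain gene Cd74 and the costimulatory receptor gene Cd40. Their log2 fold changes ran from 0.91 (Cish) to 5.58 (Cd74), and Gbp2, Irgm2 and Mx1 lay inside that range. Icam1, an adhesion molecule gene, did not pass by its brighter probe set (log2 fold change 1.35; limma adjusted p = 0.0819) and passed by the dimmer (1.13; adjusted p = 0.0459). Dimmer probe sets of the kinase gene Jak2 and of the nitric oxide synthase gene Nos2 had 0.66 and 0.75 (adjusted p = 0.0816 and 0.129). By the brightest probe set those next nearest the threshold were Gch1, Jak1 and Ifngr1, which encode a tetrahydrobiopterin enzyme, a receptor kinase and a receptor chain. They had log2 fold changes of 0.67, 0.44 and -0.28 (adjusted p = 0.383, 0.621 and 0.648).

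**Figure D4:**
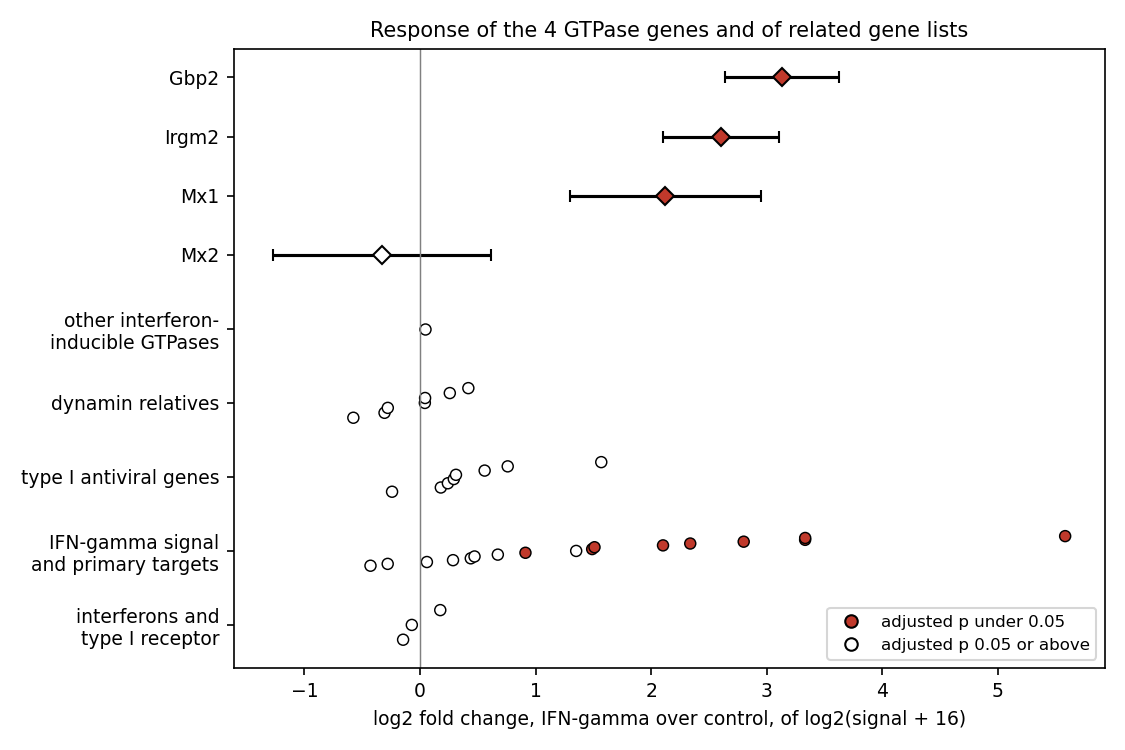
Log2 fold change of IFN-gamma over control cultures for the 4 GTPase genes (diamonds, with 95% intervals) and for each measured gene of 5 lists (circles), filled red where the adjusted p was under 0.05. Gbp2, Irgm2 and Mx1 are red, as are 9 of 17 genes of the IFN-gamma signal and primary target list, and 0 genes of the other lists are.

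The genes with the culture profile most like each GTPase gene were ranked by the root mean square difference, over the 8 cultures, between 2 profiles of log2 level minus the control mean, each gene by whichever of its probe sets lay nearest. The smaller this difference, the more alike the profiles, and the measure is dominated by the size of the shift between groups. Nearest to Gbp2 were Psmb9 at 0.268, Irf1 at 0.37, the class II chain gene RT1-Bb at 0.389, Cd74 at 0.425 and the calponin gene Cnn3 at 0.445. The Cd74 value is that of a dimmer probe set (log2 fold change 3.36), and its brightest lay 1.52 from Gbp2. Irgm2 itself was 0.426 from Gbp2 and Mx1 was 0.814 from it. Nearest to Irgm2 were Cnn3 at 0.323, the class II gene RT1-Db1 at 0.358, Tap1 at 0.38, the class II loading gene RT1-DMb at 0.391 and the fatty acid binding protein gene Fabp5 at 0.403.

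Nearest to Mx1 were Fabp5 at 0.286, RT1-DMb at 0.358, the glucose transporter gene Slc2a1 at 0.386, the lysozyme gene Lyz2 at 0.422 and the lysyl-tRNA synthetase gene Kars1 at 0.442. Of these, Fabp5 and RT1-DMb were also among the 5 nearest to Irgm2. For RT1-DMb the probe set differed, with a log2 fold change of 1.97 for the one near Mx1 and 2.61 for the one near Irgm2. Irgm2 itself was 0.538 from Mx1. By their brightest probe sets Tap1, Cxcl10 and Irf8 were 0.543, 0.583 and 0.611 from Mx1, and Irf7, Irf1 and Stat2 were 0.793, 0.935 and 0.946 from Mx1. A dimmer probe set of the same gene may lie nearer. Mx2 lay 1.80 from Mx1, 1.92 from Irgm2 and 2.23 from Gbp2, and its nearest genes, Cenatac, Mkrn2, the insulin gene Ins1, Slc24a2 and the parathyroid hormone receptor gene Pth1r, lay from 0.219 to 0.253 and had log2 fold changes between -0.57 and -0.18, with 0 of these 5 past the threshold.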

How the data were processed

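Total RNA of 10 rat microglia arrays was labelled with biotin and hybridised to Affymetrix rat arrays, per the labels' protocols and the design text. The deposited table holds 1 linear signal intensity per probe set and array. MAS5 and GCRMA are named in the submitters' processing notes without a version, and the sources used here do not say which of them made these intensities. Array control probe sets (59 of 8799) were left out of the tests. Symbols came from the platform annotation, and all 4 genes were found in the RefSeq gene table of GRCr8 by Entrez identifier. From the deposited intensities log2(signal + 16) was computed and quantile normalised over the arrays, the 3 technical arrays were averaged, and the culture was the replicate. IFN-gamma and control cultures were compared by a two-sided limma test (version 3.58.1, R 4.3.3, lmFit and eBayes) with no covariate. P-values were adjusted by Benjamini-Hochberg across the 8740 probe sets, with 0.05 as the threshold. Pairs of genes were compared with an exact permutation test (scipy 1.17.1). The limma step was tested on simulated data. The number of arrays limits the precision, and no detection calls were used.

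The genes and the gene lists were chosen with earlier results of these data known, and the promoter motifs after the GTPase values were seen. The text names all probe sets of the 4 genes, from each list every gene past the threshold and up to 4 more with the smallest adjusted p, and the 5 genes nearest in profile to each GTPase gene. Col1a1 and the dimmer Glul, Irf7, Jak2 and Nos2 probe sets were named after their values were seen. The same holds, among the cell type markers, for Itgam, Aif1, Csf1r, Cx3cr1, Cd3d, Lck and Cd8b. Marker lists of oligodendrocytes (6 measured) and neurons (6) had 0 genes past the threshold by their brightest probe sets (1 and 0 at an unadjusted p under 0.05 by limma). Alternatives changed the scaling, the offset, a filter on dim probe sets, the technical array used, the variance model, a block for the culture number, and left out each culture in turn.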

Additional observations from a re-analysis of the deposited data

How the results depend on the processing

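Gbp2 and Irgm2 kept their direction and their call in all 20 other settings, with log2 fold changes of 1.82 to 4.79 for Gbp2 and 1.72 to 3.29 for Irgm2. Mx2 stayed below 0 and uncalled in all 20 (-0.63 to -0.08). Mx1 kept its direction in all 20 and lost its call in 8 (adjusted p from 0.00134 to 0.175 over the 20): its log2 fold change was 2.49 with no scaling, 2.50 with an offset of 1, 2.30 with the replicate block, and 1.87 to 2.32 over the settings that left out 1 culture. Over those settings Gbp2 ran from 2.99 to 3.25, Irgm2 from 2.46 to 2.70 and Mx2 from -0.63 to -0.08. Of all probe sets, 81 were called higher and 53 lower. The counts were 38 and 1 with no scaling, 100 and 27 with array medians subtracted, 42 and 25 with an offset of 1, 53 and 32 with an offset of 4, and 47 to 106 higher and 21 to 50 lower without 1 culture.

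With the culture number as a replicate block 17 were higher and 5 lower, and the IFN-gamma signal and target list had 3 genes higher rather than 9. The labels do not say what the culture numbers mark. The deviations of same-numbered cultures correlated at -0.03, 0.00 and -0.01, which cannot decide whether such cultures shared a source. Over the 3 numbered pairs alone the differences between genes moved by less than the spread between cultures. With an offset of 64 the excess over Mx2 passed, at 1.97 for Gbp2, 1.87 for Irgm2 and 1.69 for Mx1 (adjusted p = 0.0357 each). With an offset of 1 it was 5.35, 3.85 and 3.06 and did not pass (adjusted p = 0.0857 each), and at both offsets 0 of the other differences between genes changed sides. Without 1 culture the excess over Mx2 was 3.17 to 3.86 for Gbp2, 2.68 to 3.21 for Irgm2 and 1.95 to 2.85 for Mx1, and the excess over Mx1 was 0.83 to 1.30 for Gbp2 and 0.31 to 0.73 for Irgm2. With no scaling the median log2 fold change of all probe sets was 0.10, against -0.02 here. The cause of these changes was not tested. Using another probe set of a gene was not run, as each gene has 1. Dim signals limit Mx2 and the Gbp2 controls, for which the offset sets the size of the change.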
